A study of Mus musculus with 6 samples.

Results

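Respiratory complexes II and III were followed through 10 of their nuclear-encoded subunit genes in mouse ovaries, 4 of complex II (Sdha, Sdhb, Sdhc and Sdhd) and 6 of complex III (Uqcrc1, Uqcrc2, Uqcrfs1, Uqcrb, Uqcrh and Uqcrq). They were chosen by symbol from a deposited table of 56980 genes, where each symbol stood once. All 10 passed the filter on low counts and are among the 17735 genes tested. The FNZ group held 3 ovary libraries (replicates 2, 3 and 5) from ICR mice, an outbred strain, injected into the peritoneum each day for 7 days with FNZ at 30 mg/kg in a vehicle of 50% polyethylene glycol 400 and 50% saline. The control group held 3 libraries (replicates 2, 3 and 4) of ICR mice that received the injection solvent. The labels give no age, no processing date (their batch entry is the 7-day course, the same for all libraries) and no statement that each ovary came from a separate mouse, so the p-values measure the spread between these libraries. FNZ is named only by its letters, and the title of the study speaks of a blockade of T-type calcium channels that disturbs mitochondria and follicles.

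Complex II is succinate dehydrogenase, an enzyme of the citric acid cycle that sits in the inner mitochondrial membrane and passes the electrons of succinate to ubiquinone. Complex III takes electrons from reduced ubiquinone, hands them to cytochrome c and pumps protons across the membrane while doing so. In the ovary, mitochondria supply the ATP of the growing oocyte, and in theca and luteal cells they also hold the enzyme that begins steroid synthesis from cholesterol.

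Total expected counts ran from 19333493 to 23406628 per library, and counts of the 10 genes made up 0.143%, 0.135% and 0.139% of them in FNZ replicates 2, 3 and 5, against 0.129%, 0.128% and 0.120% in control replicates 2, 3 and 4. Markers of granulosa cells (6 of 6), theca and luteal cells (6 of 6), oocytes (7 of 7), stroma (6 of 6) and endothelium (4 of 4) had at least 1 TPM in every library, which fits the ovary label. Libraries differed in how their values followed gene length. Ranked over genes, length and the gene's deviation in a library correlated at -0.46, 0.08 and -0.30 in FNZ replicates 2, 3 and 5. Among controls they correlated at 0.26 to 0.32. A trend of the values on gene length was therefore removed in a second fit, called the length correction, and its values stand beside the uncorrected ones. The trend differed between the groups, so it cannot be told apart from the treatment. The correction may also remove differences that came with FNZ. In these bulk samples a lower number of cells of a type and less RNA per cell cannot be told apart.

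All 6 complex III genes had positive log2 fold changes, from 0.15 to 0.72, whereas in complex II Sdhb and Sdhc were positive and Sdha and Sdhd negative. Thus 8 of the 10 were positive, against 51.2% of all tested genes, and 8 of the 10 with the length correction described above, against 54.1%. With all libraries, edgeR called 0 of the 10 genes at an adjusted p under 0.05 (adjusted p from 0.131 to 0.837), where 0% of all tested genes were called. At an unadjusted p under 0.05, 6 of the 10 were higher with FNZ and 0 were lower, against 12.0% higher and 11.2% lower of all tested genes. DESeq2 called 2 of the 10, both higher (Uqcrb and Uqcrq), against 4.54% of the genes to which it gave an adjusted p, and limma called 0 of the 10, with voom and with a trend on TPM. The median log2 fold change of the 10 was 0.29, against 0.01 for all tested genes, and 0.10 against 0.03 with the length correction. Without FNZ replicate 3, edgeR called 5 of the 10 (Sdhb, Uqcrb, Uqcrh and Uqcrq higher, Sdha lower), against 7.99% of all tested genes called higher and 9.64% called lower, and with the length correction as well it called 0 of the 10, against 1.70% and 1.86%. With each other library left out in turn, edgeR called 0 of the 10. In the members' median deviation FNZ replicate 3 was the FNZ library closest to control, so leaving it out widens the contrast. Calls made without it, here and below, are therefore no independent support.

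**Figure D1:**
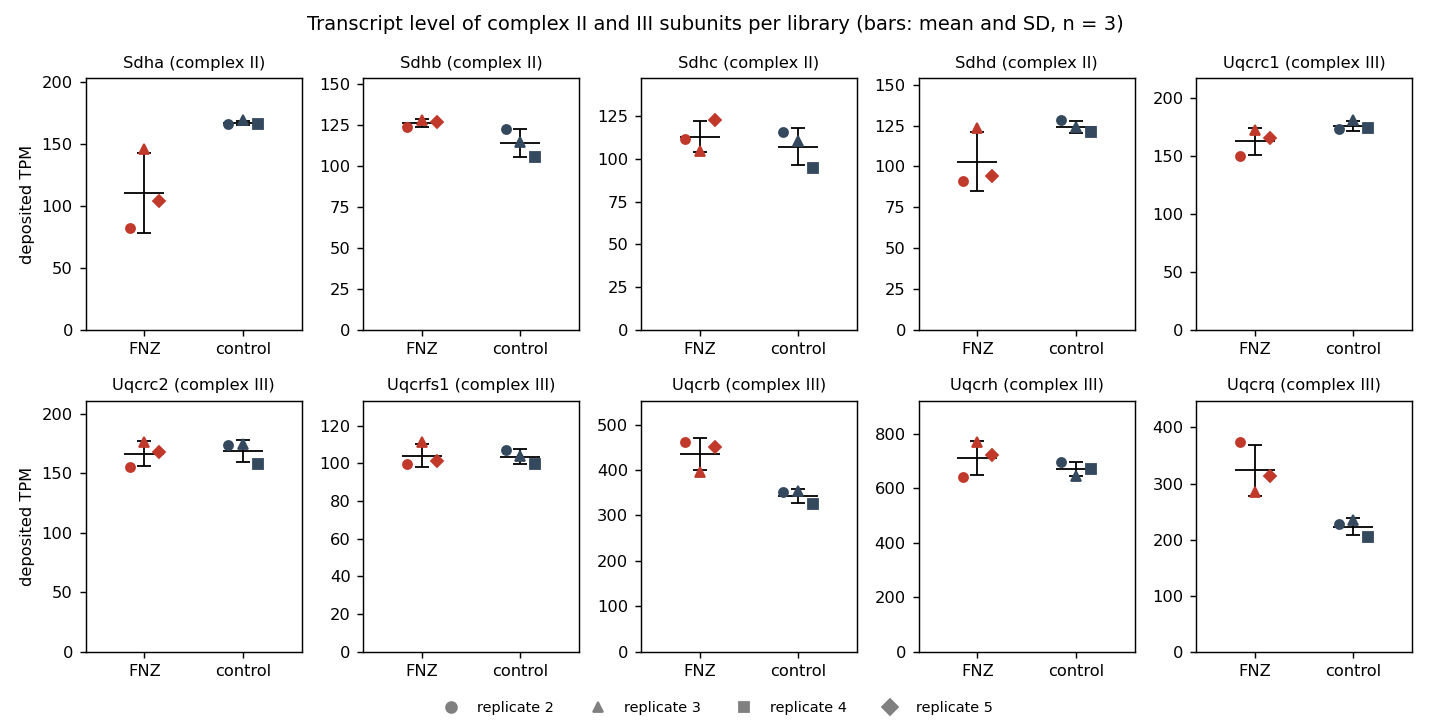
Deposited TPM of each of the 10 subunit genes (vertical axes, from 0, each with its own scale) in the FNZ and control libraries, with a symbol for each replicate number and bars for the mean and SD of 3 libraries. Sdha lies at 81.9 to 146 TPM in FNZ libraries, below 166 to 169 TPM in control libraries, and Uqcrq lies at 284 to 373 TPM in FNZ libraries, above 205 to 234 TPM in control libraries. Of all tested genes, 25.4% lie wholly below and 6.14% wholly above control in TPM.

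Sdha (ENSMUSG00000021577), at 74322254 to 74350280 of chromosome 13 on the minus strand (GENCODE M21, GRCm38), encodes the flavoprotein that oxidises succinate to fumarate. It was the member with the most negative fold change. It measured 183, 277 and 224 CPM (counts relative to the scaled library size) in FNZ replicates 2, 3 and 5, against 287, 286 and 271 CPM in control replicates 2, 3 and 4. FNZ replicates 2 and 5 lay below every control library, while FNZ replicate 3 lay inside the control range. The log2 fold change was -0.31 ± 0.15 (SE, edgeR adjusted p = 0.274), -0.27 with the length correction and -0.47 without FNZ replicate 3 (edgeR adjusted p = 0.0295). On the TPM scale (a level per length) the groups did not overlap: Sdha averaged 110 ± 32.4 TPM in FNZ and 167 ± 1.77 TPM in control ovaries (SD, n = 3 each). All FNZ libraries lay below all control libraries in TPM for 25.4% of all tested genes. The median of all tested genes was itself -0.18 on the log2(TPM + 1) scale, and relative to that median Sdha had a log2 difference of -0.46.

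Sdhb (ENSMUSG00000009863; chromosome 4, 140961203 to 140979193, plus strand) encodes the iron-sulphur subunit that receives the electrons from the flavoprotein. It went the other way from its partner: 103, 83.9 and 95.4 CPM in FNZ replicates 2, 3 and 5, against 76.7, 72.4 and 65.2 CPM in control replicates 2, 3 and 4. Every FNZ library lay above every control library, on the CPM and on the TPM scale. The same held for 15.8% of all tested genes in CPM and for 6.14% in TPM. The log2 fold change was 0.39 ± 0.11 (SE, edgeR adjusted p = 0.133), 0.19 with the length correction (adjusted p = 0.385) and 0.47 without FNZ replicate 3 (adjusted p = 0.0264). Mean Sdhb levels were 126 ± 2.18 TPM in FNZ and 114 ± 8.62 TPM in control ovaries (SD, n = 3 each).

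Both catalytic subunits are needed in the same enzyme, so their ratio was followed in each library. The ratio of Sdha to Sdhb TPM was 0.662, 1.14 and 0.817 in FNZ replicates 2, 3 and 5, against 1.36, 1.48 and 1.58 in control replicates 2, 3 and 4. All FNZ ratios lay below all control ratios, FNZ replicate 3 included. Sdha made up 24.1% ± 4.56 of the summed TPM of the 4 complex II genes in FNZ and 32.6% ± 1.45 in control ovaries (SD, n = 3 each). The ratio of Sdha to Sdhb was not corrected for length, and the fitted length trend was -0.04 at Sdha and 0.20 at Sdhb (log2, FNZ minus control). This ratio was chosen after the values of both genes were seen and was not tested.

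The other pair of complex II subunits anchors the enzyme in the membrane, and for both anchors the groups overlapped in CPM and in TPM. Sdhc (ENSMUSG00000058076; chromosome 1, 171127165 to 171150603, minus strand), which helps to form the ubiquinone site, measured 120, 88.1 and 109 CPM in FNZ replicates 2, 3 and 5, against 91.8, 86.5 and 69.7 CPM in control replicates 2, 3 and 4. FNZ replicate 3 lay inside the control range. The log2 fold change of Sdhc was 0.35 ± 0.15 (SE, edgeR adjusted p = 0.210) and 0.41 with the length correction, so that Sdhc, with 3171 bases the longest of the 10, was a member whose value did not shrink under that correction. Sdhd (ENSMUSG00000000171; chromosome 9, 50596357 to 50603812, minus strand), the other anchor, measured 82.6, 89.2 and 77.6 CPM in FNZ replicates 2, 3 and 5, against 88.3, 85.7 and 82.0 CPM in control replicates 2, 3 and 4. The groups overlapped and the log2 fold change of Sdhd was -0.04 ± 0.09 (SE, edgeR adjusted p = 0.837). It was -0.22 with the length correction and 0.01 with upper quartile scaling or without FNZ replicate 5, so no direction can be given for it.

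Promoters of complex II are shown so that the sequence can be read beside the values of its subunits. The RefSeq promoter table (GRCm38.p6) held 6 of the 10 genes, Sdha, Sdhb, Sdhd, Uqcrc1, Uqcrfs1 and Uqcrh. Those of Sdha, Sdhb and Sdhd are printed 5′ to 3′ on the gene's strand, with matches to the searched motifs in capitals. Each is cut back to the bases that lie before the annotated start and outside exons of any neighbouring gene.
Sdha, chr13:74350281-74350308, minus strand: ggaggggcgtgttGCGCAGGCGCagaat
Sdhb, chr4:140961021-140961202, plus strand: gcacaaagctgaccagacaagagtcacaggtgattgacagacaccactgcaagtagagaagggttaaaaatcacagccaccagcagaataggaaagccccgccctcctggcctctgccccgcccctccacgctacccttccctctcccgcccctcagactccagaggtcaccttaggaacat
Sdhd, chr9:50603850-50603909, minus strand: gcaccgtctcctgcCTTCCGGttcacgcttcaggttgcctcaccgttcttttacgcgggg

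In the whole 250 bases before the RefSeq start, on both strands, 5 motifs were searched: GCGCA, any base and GCGC for NRF1, a regulator of nuclear genes for mitochondria, CCGGAAG for ETS factors such as GABPA, AAGATGGC for YY1, TCAAGGTCA for ERRA and the E-box CACGTG, none of which overlapped another in these promoters. The NRF1 letters occurred in 2 of the 6 member promoters, those of Sdha (3 matches, of which 1 lies in the stretch shown) and Sdhd (1 match, outside it), and in 3.74% of the 32851 promoters of the table. The ETS letters occurred in 2 of the 6, Sdhd and Uqcrh, and in 6.91% of all promoters. The YY1, ERRA and E-box letters occurred in 0 of the 6, and in 1.56%, 0.387% and 6.02% of all promoters. A match describes the letters alone.

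Complex III is built on a pair of large core proteins that face the matrix. Uqcrc1 (ENSMUSG00000025651; chromosome 9, 108936633 to 108949623, plus strand) measured 190, 177 and 194 CPM in FNZ replicates 2, 3 and 5, against 168, 174 and 165 CPM in control replicates 2, 3 and 4. Uqcrc2 (ENSMUSG00000030884; chromosome 7, 120635176 to 120659524, plus strand) measured 227, 207 and 230 CPM in FNZ replicates 2, 3 and 5, against 199, 200 and 174 CPM in control replicates 2, 3 and 4. All FNZ libraries of both core genes lay above all control libraries on this scale, by small margins, as for 15.8% of all tested genes. Their log2 fold changes were 0.15 ± 0.09 for Uqcrc1 and 0.21 ± 0.10 for Uqcrc2 (SE, edgeR adjusted p = 0.359 and 0.263). In TPM the direction turned. Uqcrc1 averaged 163 ± 11.8 TPM in FNZ and 176 ± 4.14 TPM in control ovaries. All its FNZ libraries lay below all control libraries, as for 25.4% of all tested genes. Uqcrc2 averaged 166 ± 10.5 and 169 ± 9.33 TPM in FNZ and control ovaries (SD, n = 3 each). Relative to the all-gene median of -0.18 on log2(TPM + 1), the log2 differences of Uqcrc1 and Uqcrc2 were 0.06 and 0.15. With the length correction the log2 fold changes were 0.02 for Uqcrc1 and 0.12 for Uqcrc2. Exons of Uqcrc2 overlap those of Pdzd9 on the opposite strand, and the counts listed for Pdzd9 came to 0.203% of those for Uqcrc2.

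Uqcrfs1 (ENSMUSG00000038462; chromosome 13, 30540308 to 30545362, minus strand) encodes the Rieske iron-sulphur protein, which carries electrons from ubiquinol to cytochrome c1. It measured 102, 91.1 and 94.9 CPM in FNZ replicates 2, 3 and 5, against 83.7, 81.5 and 76.6 CPM in control replicates 2, 3 and 4. All FNZ libraries lay above all control libraries in CPM, as for 15.8% of all tested genes. The log2 fold change was 0.25 ± 0.09 (SE, edgeR adjusted p = 0.165), or 0.09 with the length correction. In TPM the groups overlapped, at 104 ± 6.14 TPM in FNZ and 104 ± 3.85 TPM in control ovaries (SD, n = 3 each).

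Of the small accessory subunits, Uqcrq and Uqcrb had the largest log2 fold changes of the 10 in the fit of all libraries. After the length correction Sdhc (0.41) lay between them and on log2(TPM + 1) Sdha (-0.63) was farthest from 0. Uqcrq (ENSMUSG00000044894; chromosome 11, 53427922 to 53430831, minus strand), which lies next to cytochrome b, measured 148, 90.9 and 103 CPM in FNZ replicates 2, 3 and 5, against 69.4, 70.7 and 67.2 CPM in control replicates 2, 3 and 4. Uqcrb (ENSMUSG00000021520; chromosome 13, 66900617 to 66905378, minus strand), the ubiquinone-binding protein, measured 129, 80.9 and 105 CPM in FNZ replicates 2, 3 and 5, against 70.8, 71.9 and 64.6 CPM in control replicates 2, 3 and 4. For both genes all FNZ libraries lay above all control libraries in CPM and in TPM, FNZ replicate 2 was the highest in CPM and FNZ replicate 3 the closest to control. Of all tested genes, 15.8% lay wholly above control in CPM and 6.14% in TPM. Uqcrq had a log2 fold change of 0.72 ± 0.18 (SE, edgeR adjusted p = 0.131, DESeq2 adjusted p = 0.0109), and 0.42 ± 0.09 with the length correction (edgeR adjusted p = 0.186). Uqcrb had a log2 fold change of 0.60 ± 0.16 (SE, edgeR adjusted p = 0.133, DESeq2 adjusted p = 0.0289), and 0.27 ± 0.10 with the length correction (edgeR adjusted p = 0.241). Without FNZ replicate 3 the values were 0.86 for Uqcrq and 0.75 for Uqcrb (log2 fold change; adjusted p = 0.0180 and 0.0127, edgeR). The authors' deposited table gives adjusted p-values of 0.0109 for Uqcrq and 0.029 for Uqcrb, the only members under 0.05 there, where 2.04% of genes with a count are under 0.05 and higher and 2.53% under 0.05 and lower, and it marks neither gene as significant.

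Uqcrh (ENSMUSG00000063882; chromosome 4, 116066965 to 116075071, minus strand), the acidic hinge protein at the docking site of cytochrome c, measured 187, 165 and 176 CPM in FNZ replicates 2, 3 and 5, against 147, 137 and 140 CPM in control replicates 2, 3 and 4. All its FNZ libraries lay above all control libraries in CPM, as for 15.8% of all tested genes. Its log2 fold change was 0.32 ± 0.09 (SE, edgeR adjusted p = 0.138), or 0.36 without FNZ replicate 3 (adjusted p = 0.0330). Although it is as short as Uqcrb (547 and 535 bases), its log2 fold change was less than that of Uqcrb, and with the length correction it was 0.02 (adjusted p = 0.950), with a sign that turned negative, to -0.05, when FNZ replicate 3 was also left out. In TPM the Uqcrh groups overlapped, at 711 ± 63.5 TPM in FNZ and 671 ± 25.1 TPM in control ovaries (SD, n = 3 each). Annotated processed pseudogenes share 25-base words with Uqcrb (4 pseudogenes, 12.5% to 24.3% of its words) and with Uqcrh (1 pseudogene, 5.57%), and each is listed at 0 counts in all libraries. Uqcrb also overlaps Gm10767 on the opposite strand by 50 bases, and 90.2 counts are listed for Gm10767 over all libraries, against 11039 for Uqcrb.

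**Figure D2:**
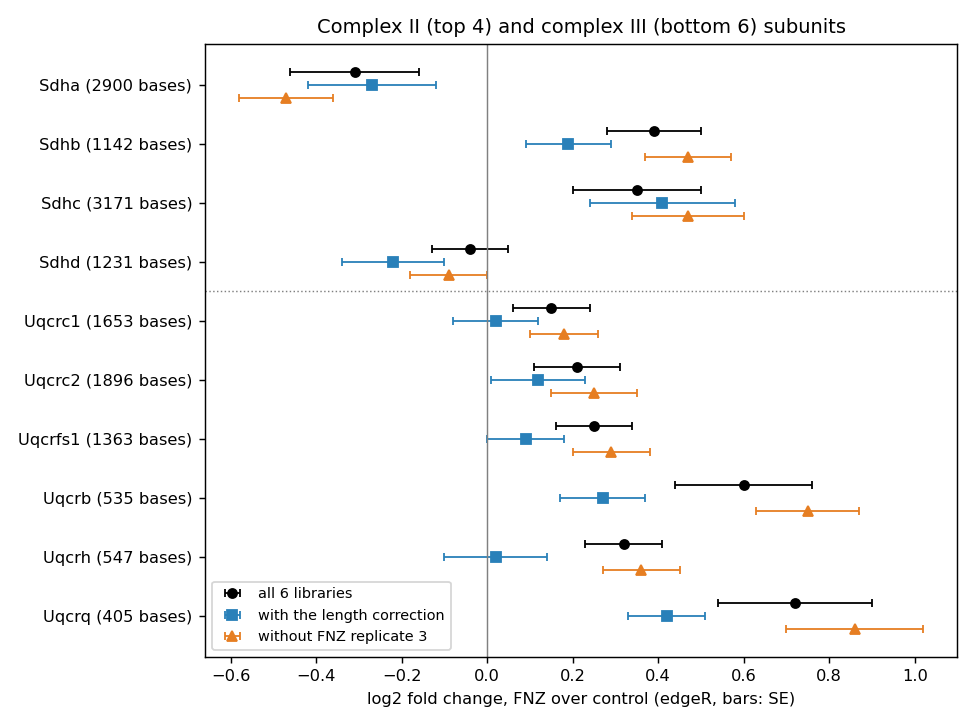
log2 fold change of FNZ over control for each member (horizontal axis, edgeR, bars for the SE), with all 6 libraries, with the length correction and without FNZ replicate 3, and with the deposited gene length beside each name. Uqcrq has the highest value in the fit of all libraries, at 0.72, and Sdha the lowest, at -0.31, and Uqcrh moves to 0.02 with the length correction.

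Per length, Uqcrh was the most abundant member in both groups, followed by Uqcrb at 436 ± 35.6 TPM in FNZ and 343 ± 16.1 TPM in control ovaries, and Uqcrq at 324 ± 45.4 TPM in FNZ and 223 ± 15.3 TPM in control ovaries (SD, n = 3 each). The levels of these 3 genes did not overlap each other within a group. Next came the core proteins Uqcrc1 and Uqcrc2, whose levels overlapped each other in both groups. Sdha held the sixth place in control ovaries, overlapping Uqcrc2, and the eighth in FNZ ovaries, where its range of 81.9 to 146 TPM spanned those of Sdhb, Sdhc, Sdhd and Uqcrfs1. The others had means of 103 to 126 TPM in FNZ and 104 to 124 TPM in control ovaries, and neighbours in that order overlapped, except Uqcrc1 and Sdhb and then Sdhb and Sdhc in FNZ ovaries, and Sdha and Sdhd in control ovaries.

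The summed level of the 4 complex II genes was 409, 502 and 448 TPM in FNZ replicates 2, 3 and 5, against 533, 519 and 487 TPM in control replicates 2, 3 and 4. The summed level of the 6 complex III genes was 1882, 1907 and 1924 TPM in FNZ replicates 2, 3 and 5, against 1730, 1694 and 1635 TPM in control replicates 2, 3 and 4. Complex II sums thus overlapped between groups and complex III sums did not. The ratio of the complex III to the complex II sum was 4.61, 3.80 and 4.30 in the FNZ libraries, against 3.25, 3.27 and 3.36 in the control libraries, and the groups did not overlap. These sums and their ratio were not corrected for length. The fitted length trend (log2, FNZ minus control) was 0.27 at Uqcrq, 0.30 at Uqcrb and 0.30 at Uqcrh. In complex II it ran from -0.06 at Sdhc to 0.20 at Sdhb. Sums over chosen genes were not tested.

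**Figure D3:**
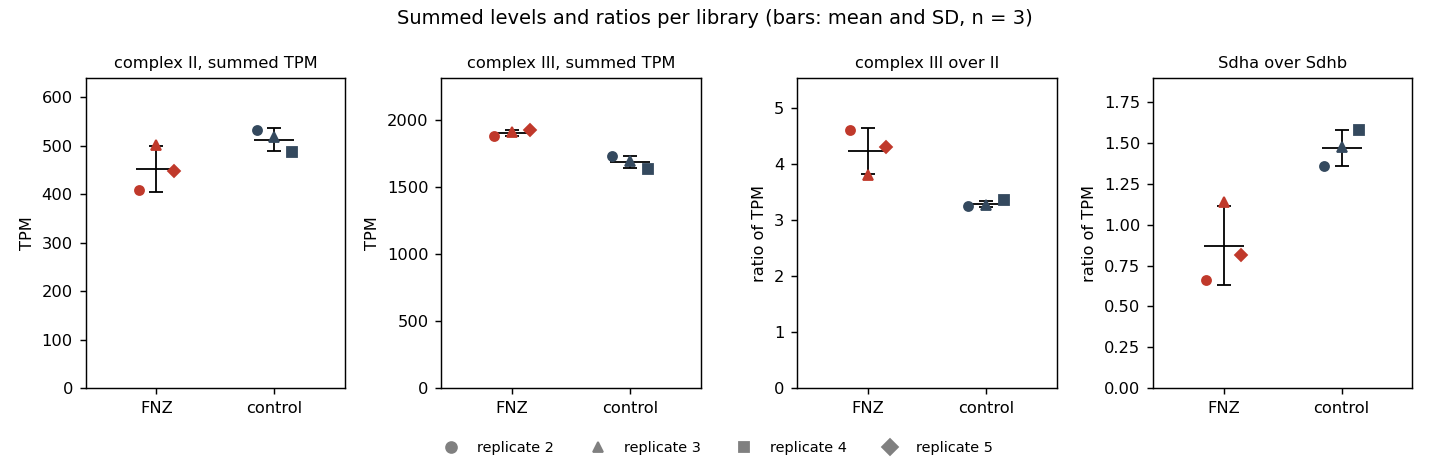
Summed TPM of the complex II and complex III members, their ratio, and the ratio of Sdha to Sdhb TPM (vertical axes, from 0) in FNZ and control libraries, with a symbol for each replicate number and bars for the mean and SD of 3 libraries. The ratio of complex III to complex II lies at 3.80 to 4.61 in FNZ libraries and 3.25 to 3.36 in control libraries, and the Sdha to Sdhb ratio at 0.662 to 1.14 in FNZ libraries and 1.36 to 1.58 in control libraries.

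Deposited gene length ran from 405 bases (Uqcrq) to 3171 bases (Sdhc), with a median of 1297 bases, against 2705 bases for all tested genes. Across the 10 members the log2 fold change had a Spearman correlation of -0.64 with length, and across all 17735 tested genes of -0.42. Genes share libraries and are not independent replicates, so both are descriptions. The fitted length trend alone gave differences of 0.30 at the length of Uqcrb and 0.30 at that of Uqcrh, where the measured log2 fold changes were 0.60 and 0.32. It gave 0.19 at the length of Sdhd and -0.04 at that of Sdha, where the measured values were -0.04 and -0.31. Sdha and Sdhd thus lay under the trend, Uqcrq, Uqcrb, Sdhb, Sdhc, Uqcrc2 and Uqcrfs1 above it, and Uqcrc1 and Uqcrh within 0.02 of it.

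**Figure D4:**
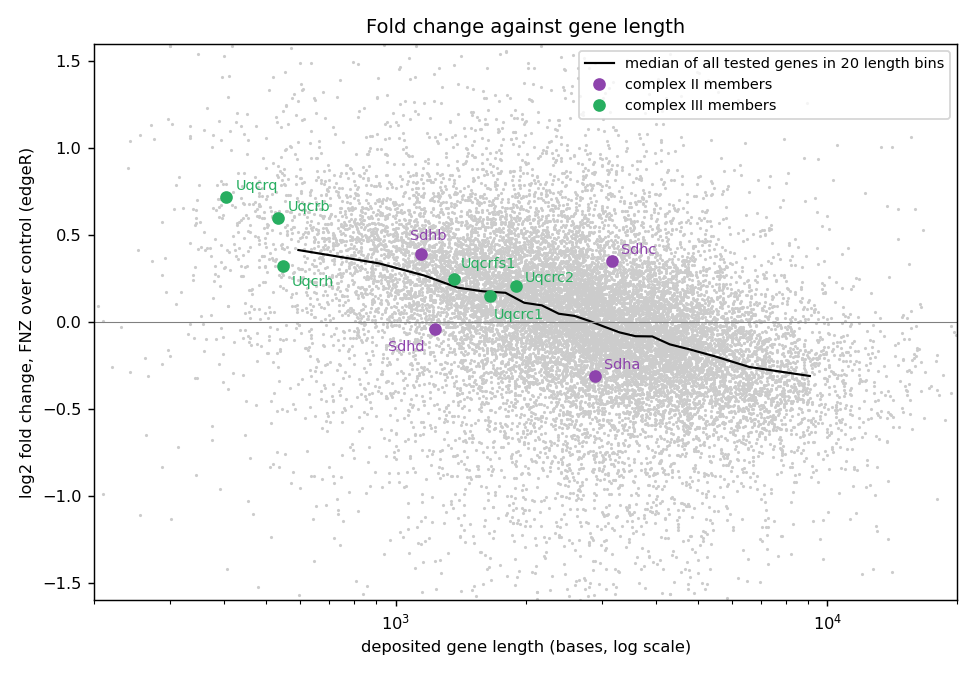
log2 fold change of FNZ over control (vertical axis, edgeR) against deposited gene length in bases (horizontal log axis) for all tested genes in grey, with the members in colour and a line for the median in 20 length bins; 216 genes beyond 1.6 on the log2 scale lie outside the axes. The line declines with length, Uqcrq and Uqcrb lie above it at 0.72 and 0.60, and Sdha and Sdhd lie below it at -0.31 and -0.04.

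Over the 6 libraries, with the group difference left in, the members varied together except for Sdha and Sdhd. These correlations thus partly restate the signs of the fold changes. The log2 CPM of each of the other 8 genes had a Pearson correlation of 0.91 to 1.00 with the mean of the remaining members over the 6 libraries, against -0.88 for Sdha and -0.33 for Sdhd. The median deviation of the 10 genes from their own means was 0.23, 0.04 and 0.16 (log2) in FNZ replicates 2, 3 and 5, against -0.08, -0.10 and -0.22 in control replicates 2, 3 and 4. Among 8975 other genes with at least 10 TPM on average, the profiles most like the mean of the members were those of Cox7a2, Tmed9, Apoo, Atp5j2 and B4galt7 (Pearson's r from 0.997 to 0.999 over 6 libraries that share their depth and length trend), and 567 genes had an r over 0.95. Cox7a2 and Atp5j2 encode subunits of cytochrome oxidase and ATP synthase, and Apoo a protein of the mitochondrial cristae, whereas Tmed9 and B4galt7 are in none of the respiratory lists used here.

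The remaining complex III subunits were all positive. Cytochrome b is made in the mitochondrion from mt-Cytb, which averaged 4135 ± 774 CPM in FNZ and 2852 ± 119 CPM in control ovaries (SD, n = 3 each), at 0.54 ± 0.16 (log2 fold change ± SE; adjusted p = 0.136, edgeR). Cytochrome c1, from Cyc1, averaged 120 ± 7.53 CPM in FNZ and 97.2 ± 7.30 CPM in control ovaries, at 0.30 ± 0.10 (adjusted p = 0.151). The small subunits Uqcr10 and Uqcr11 were at 0.57 ± 0.13 and 0.68 ± 0.21 (log2 fold change ± SE; adjusted p = 0.131 and 0.140, edgeR). For these 4 genes the FNZ libraries lay above the control libraries in CPM, where 15.8% of all tested genes did. DESeq2 called 3 of them higher, all but Cyc1, against 4.54% of the genes to which it gave an adjusted p. Without FNZ replicate 3 edgeR called the same 3 genes (adjusted p from 0.0127 to 0.0367), against 7.99% of all tested genes called higher. With the length correction the values were 0.32 for mt-Cytb, 0.15 for Cyc1, 0.28 for Uqcr10 and 0.35 for Uqcr11.

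Among factors that assemble complexes II and III, 10 of the 13 listed symbols were in the table, 7 with a positive log2 fold change and 3 with a negative one (median 0.44). Of these 10, edgeR called 0. At an unadjusted p under 0.05, 6 were higher and 1 lower, against 12.0% and 11.2% of all tested genes. DESeq2 called 3 of the 10, all higher, against 4.54% of the genes to which it gave an adjusted p. Leaving out FNZ replicate 3, edgeR called 3 higher and 1 lower, against 7.99% and 9.64% of all tested genes. Uqcc2 and Uqcc3, which act with newly made cytochrome b, averaged 45.8 ± 11.7 and 30.7 ± 7.24 CPM in FNZ, against 24.8 ± 5.11 and 19.1 ± 2.27 CPM in control ovaries (SD, n = 3 each), at 0.89 ± 0.22 and 0.68 ± 0.19 (log2 fold change ± SE; adjusted p = 0.131 and 0.133, edgeR). With the length correction they were 0.56 and 0.41.

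Of 13 genes of ubiquinone synthesis, 12 were positive, with a median of 0.16. After the length correction 9 were positive, with a median of 0.04. Of all tested genes, 51.2% and 54.1% were positive in these fits. Those with the smallest p were Coq7, a hydroxylase of the pathway, and Coq2, which joins the ring to its tail, at 0.44 ± 0.13 and 0.35 ± 0.17 (log2 fold change ± SE; adjusted p = 0.139 and 0.266, edgeR). With the length correction they were 0.25 and 0.22, and without FNZ replicate 3 they were 0.51 and 0.51 (adjusted p = 0.0454 and 0.0341, edgeR). In the fit without FNZ replicate 3, 7.99% of all tested genes were called higher. With the length correction as well, edgeR called 0 of the 13 genes. Of 7 genes of other enzymes that feed ubiquinone, 4 were positive and 3 negative (median 0.01). Etfb, of the electron-transferring flavoprotein, averaged 129 ± 13.1 CPM in FNZ and 88.6 ± 7.30 CPM in control ovaries (log2 fold change 0.54 ± 0.11, edgeR adjusted p = 0.131, DESeq2 adjusted p = 0.00777), or 0.29 with the length correction. Gpd2, the mitochondrial glycerol 3-phosphate dehydrogenase, averaged 24.5 ± 9.31 CPM in FNZ and 42.3 ± 3.42 CPM in control ovaries (log2 fold change -0.78 ± 0.25, edgeR adjusted p = 0.148, DESeq2 adjusted p = 0.0347), or -0.58 with the length correction. All its FNZ libraries lay below all control libraries in CPM, as for 13.8% of all tested genes. Without FNZ replicate 3 edgeR called both, Etfb at 0.59 and Gpd2 at -1.12 (log2 fold change, adjusted p = 0.0185 and 0.0113). That fit called 7.99% of all tested genes higher and 9.64% lower. With the length correction as well, Gpd2 was called (-0.83, edgeR adjusted p = 0.0324) and Etfb was not (0.28, edgeR adjusted p = 0.216). There 1.86% of all tested genes were called lower. Cytochrome c itself, from Cycs, had a log2 fold change of 0.17 ± 0.10 and Hccs, which attaches its haem, 0.08 ± 0.14 (edgeR adjusted p = 0.345 and 0.735).

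In the citric acid cycle, 10 of 13 enzymes listed beside succinate dehydrogenase were positive and 3 negative, with a median of 0.10. Fh1, the fumarase that uses the product of succinate dehydrogenase, averaged 133 ± 13.1 CPM in FNZ and 103 ± 4.52 CPM in control ovaries, at 0.37 ± 0.10 (log2 fold change ± SE; adjusted p = 0.133, edgeR). Idh3b, of isocitrate dehydrogenase, had a log2 fold change of 0.22 ± 0.09 (adjusted p = 0.183). Without FNZ replicate 3 Fh1 was at 0.45 (adjusted p = 0.0177, edgeR), where 7.99% of all tested genes were called higher. With the length correction as well, edgeR called 0 of the 13 enzymes. With the length correction Fh1 was at 0.38, and Idh3b was then 0.10.

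Beside the 10 members, 34 of 36 nuclear subunits of complex I were positive (median 0.54). So were 23 of the 25 subunits of complexes IV and V found in the table, of 40 symbols listed with older and newer names (median 0.43). Of either set edgeR called 0. At an unadjusted p under 0.05 the counts were 32 and 17 higher, against 12.0% of all tested genes, and 0 lower, against 11.2%. DESeq2 called 18 of the complex I and 9 of the complex IV and V subunits, all higher, against 4.54% of the genes to which it gave an adjusted p. When FNZ replicate 3 was left out, edgeR called 30 and 17 higher, against 7.99% of all tested genes. With the length correction as well it called 5 and 1 higher, against 1.70%. These genes are shorter, with median lengths of 812 and 723 bases, and with the length correction their medians were 0.30 and 0.17, against 0.10 for the complex II and III members. In CPM the FNZ libraries lay above all control libraries for 7 of the 10 members, for 32 of 36 complex I subunits and for 19 of 25 complex IV and V subunits, against 15.8% of all tested genes, and below them for 0 of the 10 members, against 13.8%. In TPM this held for 3 of the 10 members, 25 of 36 and 11 of 25, against 6.14% of all tested genes, and the reverse for 2 of the 10 members, Sdha and Uqcrc1, against 25.4%. No difference between the complexes was tested.

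Markers of cell types that an ovary sample can hold varied within the groups. Summed levels of theca and luteal markers were 3139 to 5066 TPM in FNZ and 3089 to 3572 TPM in control libraries, with 3 of 6 positive. Those of oocyte markers were 263 to 540 TPM in FNZ and 338 to 523 TPM in control libraries, with 7 of 7 positive. Granulosa markers summed to 3916 to 4624 TPM in FNZ and 4035 to 4185 TPM in control libraries, with 5 of 6 positive. Stromal markers summed to 1512 to 2558 and 1845 to 2220 TPM in FNZ and control libraries, with 4 of 6 positive. Endothelial markers (0 of 4 positive) summed to 59.1 to 102 and 80.3 to 125 TPM, and macrophage and leukocyte markers (0 of 6 positive) to 72.5 to 95.7 and 86.2 to 177 TPM, in FNZ and control libraries. Fat, blood and oviduct markers varied widely between libraries of the same group. Fat markers summed to 1372 TPM in FNZ replicate 3, against 320 and 89.6 TPM in FNZ replicates 2 and 5. In control libraries they summed to 93.8 to 1349 TPM, the highest in control replicate 4. Blood markers summed to 3787 TPM in FNZ replicate 3, against 1115 and 645 TPM in FNZ replicates 2 and 5 and 1989 to 3735 TPM in control libraries, and oviduct markers ran from 2.19 to 36.2 TPM in FNZ and from 2.03 to 419 TPM in control libraries. Skeletal muscle markers summed to 3.02 to 8.46 TPM in FNZ and 2.06 to 3.34 TPM in control libraries. No listed marker was at 0 in all libraries, and edgeR called 0 of them. Among abundant markers of hormone-making cells, Hsd3b1 averaged 3585 ± 330 CPM in FNZ and 1973 ± 400 CPM in control ovaries, Hsd17b1 305 ± 17.3 CPM in FNZ and 202 ± 27.2 CPM in control ovaries, and Inha 3550 ± 107 CPM in FNZ and 2865 ± 82.5 CPM in control ovaries (SD, n = 3 each). DESeq2 called these 3 markers higher (adjusted p = 0.000514, 0.00482 and 0.0245), against 4.54% of the genes to which it gave an adjusted p. The edgeR log2 fold changes of Hsd3b1, Hsd17b1 and Inha were 0.86, 0.60 and 0.31. With the length correction they were 0.73, 0.43 and 0.16, and in TPM the Inha groups overlapped. Cyp11a1, the enzyme that begins steroid synthesis and the other abundant theca and luteal marker, measured 539, 1402 and 567 CPM in FNZ replicates 2, 3 and 5 and averaged 919 ± 122 CPM in control ovaries (SD, n = 3). Its log2 fold change was -0.14 ± 0.38 (SE, edgeR adjusted p = 0.856), and without FNZ replicate 3 it was -0.74 (adjusted p = 0.0169), or -0.81 with the length correction as well (adjusted p = 0.0380). In these 2 fits 9.64% and 1.86% of all tested genes were called lower. The part of any marker list in the values of the complex II and III genes was not tested.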

How the data were processed

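Poly(A) RNA of 6 ovary libraries was sequenced as paired-end reads, per the labels. Base calling with bcl2fastq 2.20, DESeq2 1.38.3 and the genome build GRCm39 come from the submitters' processing notes; the aligner, counter, annotation and strand setting were not given in the sources read for this work. The authors deposited expected counts per gene (12% to 14.8% of values per library not whole) and TPM. Their table also gives a fold change as a ratio and as log2, with p-values, which are the authors' and were made before deposition. Library columns match the sample titles, and no 2 libraries of a group agreed within sampling noise.

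The test of rounded expected counts was that of edgeR 4.0.16, run in R 4.3.3 (TMM, filterByExpr, robust two-sided quasi-likelihood F test, Benjamini-Hochberg adjustment over all 17735 tested genes, threshold 0.05). SEs were taken from the F statistic, CPM use TMM-scaled library sizes, and TPM were tested with limma 3.58.1 on log2(TPM + 1), which understates changes of low genes. For the length correction, log2 CPM (prior count 2) was smoothed over log2 gene length in each library by loess with a span of 0.3, and the curve served as an offset. Overlaps and shared 25-base words come from GENCODE M21 (GRCm38), whose build differs from that of the table; it was used for names, neighbours and its own coordinates. Alternatives were RLE and upper quartile scaling, DESeq2 1.42.0, limma voom, no filter, 1 CPM in 3 libraries, the length correction, replicate blocks and each library left out. The test was checked on simulated counts.

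Named genes are the members, the other complex III subunits, the 2 with the smallest p of each partner list, and the 5 most alike. Of the 2 most abundant markers of each list, also in that rule, those DESeq2 called and Cyp11a1, which edgeR called without FNZ replicate 3, are given singly and the others within their list's sum. The members and lists were chosen with earlier results of these data known. No counting intervals are given, because the labels name a PCR step and no molecular identifiers.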

Additional observations from a re-analysis of the deposited data

How the results depend on the processing

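Over all tested genes edgeR called 0; DESeq2 called 1497 (672 higher, 825 lower), limma voom 2, limma on TPM 1, edgeR without a filter 183, and with the length correction 2, or 653 when FNZ replicate 3 was also left out. Leaving out each library gave 0 to 3230 genes, the highest without FNZ replicate 3, and 0 to 5 of the 10 members. DESeq2 called 2 of the members, and the other alternatives with all libraries called 0.

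The members' median log2 fold change of 0.29 was 0.10 with the length correction and 0.11 with it and without FNZ replicate 3. When each library was left out it was 0.23 to 0.33. On log2(TPM + 1) the members' median was 0.04, against -0.18 for all tested genes. The log2 ratio of mean summed levels was -0.18 for complex II and 0.18 for complex III in TPM (-0.26 to -0.11 and 0.15 to 0.19 when each library was left out), and -0.03 and 0.32 in CPM. Signs turned for Sdhd (0.01 with upper quartile scaling and without FNZ replicate 5, and -0.09 to 0.01 over all left-out libraries), Uqcrc1 and Uqcrc2 (-0.12 and -0.02 on TPM) and Uqcrh (-0.05 with the length correction and without FNZ replicate 3). Sdha stayed negative, and Sdhb, Sdhc, Uqcrfs1, Uqcrb and Uqcrq positive, under all 17 alternatives. The cause of these differences was not tested.

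The titles number the libraries, and numbers 2 and 3 occur in both groups. Deviations of same-numbered libraries correlated at -0.08 and -0.14 across genes, and those of unlike-numbered libraries at -0.21 and 0.098. No pairing by number was seen, but with so few libraries these values cannot exclude it. With the replicate number as a block edgeR called 24 genes (19 higher, 5 lower), or 3 with the length correction as well, and 0 members under either. The replicate block with the length correction gave a members' median of 0.01 and turned the signs of Uqcrc1, Uqcrc2 and Uqcrh (-0.05, -0.02 and -0.03). With 3 libraries per group, edgeR on all libraries resolved no member's difference at an adjusted p under 0.05, and those of Uqcrc1 and Sdhd were the smallest.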

Other observations

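In the mouse annotation an exon of a gene on the opposite strand lies within the 250 bases before the start of Sdha, Sdhd and Uqcrh; these neighbours are Ccdc127, Timm8b and Lrrc41. They were looked at after the values of the members were seen. Timm8b, an import chaperone of the space between the mitochondrial membranes, measured 58.5, 40.3 and 50.4 CPM in FNZ replicates 2, 3 and 5, against 35.3, 31.8 and 30.4 CPM in control replicates 2, 3 and 4. All FNZ libraries lay above all control libraries for Timm8b (log2 fold change 0.61 ± 0.15, SE, edgeR adjusted p = 0.131), whereas those of Sdhd overlapped. Lrrc41 measured 70.3, 112 and 96.7 CPM in FNZ libraries, against 122, 129 and 119 CPM in control libraries, below all of them (log2 fold change -0.41 ± 0.16, edgeR adjusted p = 0.194), whereas Uqcrh lay above all of its control libraries. Of all tested genes, 15.8% lay wholly above control in CPM and 13.8% wholly below. Ccdc127 overlapped between groups (log2 fold change -0.10 ± 0.10, edgeR adjusted p = 0.585). Timm8b is short (518 bases) and Lrrc41 and Ccdc127 are long (3065 and 9559 bases), and with the length correction their log2 fold changes were 0.30 for Timm8b, -0.36 for Lrrc41 and 0.22 for Ccdc127, whose sign turned.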
